A study of Mus musculus with 18 samples.

Results

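The core repressors of the circadian clock were followed in white fat of mice: the Period genes Per1, Per2 and Per3, the cryptochrome genes Cry1 and Cry2, and Ciart (also called Chrono), which encodes a further repressor. These 6 genes were taken as a list of names and matched by gene symbol. All 6 were found once among the 24091 symbols of the epididymal fat table and once among the 51826 identifiers of the inguinal fat table, and all 6 passed the filter on low counts in every comparison. The rule uses names alone and no measured value. The deposited epididymal fat table places Per1 (ENSMUSG00000020893.17) on chromosome 11 from 69095254 to 69109957 on the + strand, and the others on the - strand: Per2 (ENSMUSG00000055866.9) on chromosome 1 from 91415982 to 91459328, Per3 (ENSMUSG00000028957.12) on chromosome 4 from 151003655 to 151044665, Cry1 (ENSMUSG00000020038.10) on chromosome 10 from 85131700 to 85185054, Cry2 (ENSMUSG00000068742.11) on chromosome 2 from 92403647 to 92434069 and Ciart (ENSMUSG00000038550.10) on chromosome 3 from 95878505 to 95882228 (build GRCm38, the assembly also called mm10).

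Gene expression was measured by RNA sequencing of 18 libraries, 3 in each of 6 groups of C57BL/6 mice. Control mice were kept in a fixed cycle of 12 h light and 12 h dark. Shiftwork mice spent 4 days of each week in that cycle and the other 3 days in its mirror image, with light and dark exchanged, and both schedules ran for 24 weeks. Times are zeitgeber times (ZT), in hours after lights-on of the regular cycle, so that ZT12 is the hour of lights-off. Epididymal white adipose tissue (eWAT), a visceral depot, was taken from control and shiftwork mice at ZT3 and at ZT12. Inguinal white adipose tissue (iWAT), a subcutaneous depot, was taken from control and shiftwork mice at ZT3. The labels give neither the day of the week of sampling nor whether the samples of a group came from separate animals, so the p-values measure the spread between samples, which may be technical in part.

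The clock of mammalian cells is a delayed negative feedback loop. The activators BMAL1 (gene Arntl) and CLOCK bind E-box sequences and drive transcription of the Period, cryptochrome and Ciart genes, whose proteins return to the nucleus and inhibit BMAL1 and CLOCK. Interlocked loops run through the REV-ERB and ROR factors, which set Arntl, and through the D-box factors DBP, TEF and HLF, which activate, and NFIL3, which represses. In fat, this loop is known to time lipid storage and release and the output of adipokines. In peripheral organs of nocturnal mice, Arntl transcripts are known to peak near the end of the night or early in the day and Period transcripts around dusk.

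Promoter windows are shown because the members differ in which clock elements, E-boxes or D-boxes, stand there. RefSeq promoters (build GRCm38.p6) were found for 5 of the 6 members, with 6 start sites in all. Each window runs from 250 to 31 bases before the annotated start, 220 bases, and none holds an annotated exon base. The Per1 window lies at chr11:69098699-69098918 on the + strand, before a start inside the Per1 locus. The other windows are on the - strand: Per3 at chr4:151044696-151044915, Cry1 at chr10:85185085-85185304, Cry2 at chr2:92434100-92434319 and Ciart at chr3:95882259-95882478. Capitals mark the E-box CACGTG, the E-prime box CACGTT or its reverse complement AACGTG, and the D-box TTATGTAA, each searched on both strands. None of these motifs contains another of them.
Per1: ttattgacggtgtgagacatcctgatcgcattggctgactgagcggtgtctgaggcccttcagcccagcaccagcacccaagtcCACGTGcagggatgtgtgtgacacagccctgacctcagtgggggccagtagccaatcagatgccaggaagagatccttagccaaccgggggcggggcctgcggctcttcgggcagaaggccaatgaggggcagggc
Per3: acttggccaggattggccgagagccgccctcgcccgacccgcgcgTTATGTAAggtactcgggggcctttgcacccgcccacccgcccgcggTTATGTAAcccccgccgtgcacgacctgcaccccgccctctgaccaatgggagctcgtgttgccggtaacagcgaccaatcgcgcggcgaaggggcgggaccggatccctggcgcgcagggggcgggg
Cry1: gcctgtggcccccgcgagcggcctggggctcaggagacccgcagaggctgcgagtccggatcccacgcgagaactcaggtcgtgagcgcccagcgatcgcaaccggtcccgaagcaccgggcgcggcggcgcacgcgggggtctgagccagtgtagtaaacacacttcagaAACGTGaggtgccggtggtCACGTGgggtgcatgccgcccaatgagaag
Cry2: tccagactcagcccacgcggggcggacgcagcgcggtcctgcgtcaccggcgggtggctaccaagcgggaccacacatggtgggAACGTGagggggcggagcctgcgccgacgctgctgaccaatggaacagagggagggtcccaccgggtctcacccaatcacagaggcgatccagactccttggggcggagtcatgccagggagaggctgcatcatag
Ciart: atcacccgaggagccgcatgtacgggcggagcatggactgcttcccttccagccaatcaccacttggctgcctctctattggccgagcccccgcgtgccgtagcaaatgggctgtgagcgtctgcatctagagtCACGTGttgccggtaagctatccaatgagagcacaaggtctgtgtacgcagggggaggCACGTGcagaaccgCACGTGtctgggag
The Ciart window held 3 E-boxes, and the Per1 and Cry1 windows 1 each, where 5.01% of 32817 promoter windows of the same length held at least 1. An E-prime box stood in the Cry1 and Cry2 windows (3.4% of all windows). The Per3 window had no E-box but 2 copies of TTATGTAA, which 0.734% of all windows held. A second Per1 window, before another start inside the locus at chr11:69099902-69100121 on the + strand, held none of these motifs. The cAMP response element TGACGTCA (1.14% of all windows) and the D-box variant TTACGTAA (0.0945%) occurred in none of the 6 windows. A match is a description of letters, not of binding.

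Assigned reads numbered 20352008 to 72276733 per library in eWAT and 28544338 to 55639501 in iWAT. Levels are given in CPM (counts scaled to the assigned reads of the library), and differences on the log2 scale with their standard error (SE). All 10 adipocyte markers (among them Adipoq, Plin1 and Fabp4) were above 1 CPM in every library, with a summed level of 11991 to 32257 CPM. Other tissues stood out in single libraries, and some marker sums differed between whole eWAT groups. The summed level of 10 vas deferens and epididymis markers was 13148 and 12499 CPM in eWAT ZT3 control replicates 1 and 3. It was 57.1 CPM in ZT3 shiftwork replicate 3 and at most 11.6 CPM elsewhere. In those controls 4 and 5 of the 10 markers were above 1 CPM, and 1 and 2 were at 0. In ZT3 shiftwork replicate 3, 4 of the 10 were above 1 CPM. Smooth muscle markers summed to 10241 and 6863 CPM in the same 2 controls, against 153 to 1433 CPM in the other 16 libraries. The 10 spermatid markers summed to 7685 CPM in eWAT ZT3 shiftwork replicate 3, with none at 0, and to 37.9 to 141 CPM elsewhere. All 10 were also above 1 CPM in eWAT ZT3 control replicate 2 (sum 88.2 CPM) and in ZT12 shiftwork replicates 1 and 3 (141 and 71.2 CPM). The 6 intestine markers summed to 122 CPM in eWAT ZT12 shiftwork replicate 2, with none at 0, and to 7.65 to 39.25 CPM elsewhere. In iWAT, 6 B cell markers summed to 924 and 1367 CPM in control replicates 1 and 2 and to at most 39.03 CPM in the other 4 libraries. The 6 skeletal muscle markers summed to 42588 CPM in iWAT shiftwork replicate 1 and 698 CPM in shiftwork replicate 2. In the remaining iWAT libraries they summed to 62.8 to 146 CPM. In eWAT, the 4 macrophage markers summed to 366 to 430 CPM in ZT3 controls and 567 to 1125 CPM in ZT12 controls. In shiftwork mice this sum was 331 to 606 CPM at ZT3 and 721 to 1317 CPM at ZT12. B cell markers summed to 69.2 to 250 CPM in ZT3 controls and 12.2 to 44.7 CPM in the other eWAT groups. Skeletal muscle markers summed to 51.3 to 229 CPM and 16.4 to 41.3 CPM in the same groups. Whether this bears on the members was not tested. Being from bulk tissue, a lower level cannot tell fewer expressing cells from less RNA per cell.

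**Figure D1:**
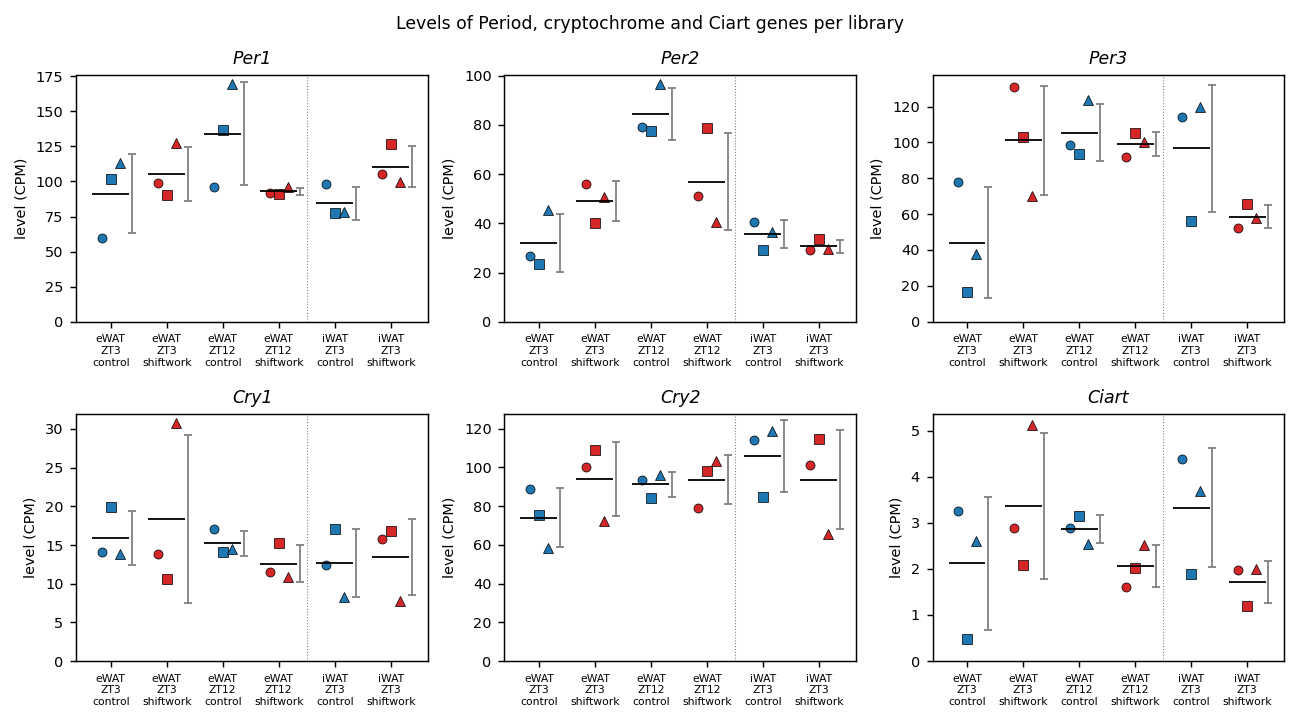
Level of Per1, Per2, Per3, Cry1, Cry2 and Ciart in CPM (vertical axes, linear from 0) in each of the 18 libraries, by depot, time and schedule. Circles, squares and triangles are replicates 1, 2 and 3, blue is control and red shiftwork, black lines are group means and grey bars the SD (n = 3). Per2 and Per3 were lower in each of the 3 eWAT ZT3 control libraries than in each of the 3 ZT12 control libraries.

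Per2, whose protein is a scaffold of the repressor complex, was the member that passed the test between times of day in eWAT of control mice. It stood at 26.7, 23.5 and 45.5 CPM in ZT3 controls and at 79.2, 77.5 and 96.7 CPM in ZT12 controls. Every ZT12 control library lay above every ZT3 control library. The log2 difference was 1.45 ± 0.30 (SE), a 2.74-fold rise, with an edgeR adjusted p of 0.0329. It was 1 of 6 members, and 3.69% of 15141 genes were called (559, of which 443 were higher and 116 lower at ZT12, with 1 called without ZT12 control replicate 1 and 2744 without ZT3 shiftwork replicate 3, the extremes of leaving out 1 library). The balance of directions also moved, to 503 higher and 705 lower without ZT3 control replicate 2, and to 268 higher and 351 lower without the 3 ZT3 libraries with other tissues. Per2 and Per3 were the 2 members whose control libraries did not overlap between times, against 30.9% of all genes. DESeq2 gave an adjusted p of 0.000127. The edgeR call depended on which libraries entered and on the design. With the replicate number as a block it was lost (1.47, edgeR adjusted p = 0.0698). The edgeR adjusted p was 0.0970 without ZT3 control replicate 1 and 0.0838 without ZT3 control replicate 3. Without ZT12 control replicate 1, 2 or 3 it was 0.122, 0.1004 and 0.0873, and without ZT12 shiftwork replicate 3, a library of neither group compared, it was 0.0514. The log2 difference itself stayed between 1.29 and 1.77 over all alternatives.

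In shiftwork mice, Per2 was at 56.1, 40.1 and 50.6 CPM at ZT3 and at 51.2, 79.0 and 40.7 CPM at ZT12. The times overlapped, since ZT12 replicate 3 lay below 2 of the 3 ZT3 libraries and only ZT12 replicate 2 was near the ZT12 controls. That ZT12 replicate 2 is the library with the highest intestine marker sum, 122 CPM. The log2 difference between times was 0.21 ± 0.29 (edgeR adjusted p = 0.761). The interaction of schedule and time, which tests whether the difference between times itself differs, was -1.24 ± 0.41 on the log2 scale and did not pass (edgeR adjusted p = 0.458). In the order of means, ZT12 control came first at 84.5 ± 10.6 CPM (SD, n = 3), then ZT12 shiftwork at 56.9 ± 19.8, ZT3 shiftwork at 48.9 ± 8.11 and ZT3 control at 31.9 ± 11.9 CPM. Each group overlapped the next in that order. Between schedules, the log2 difference of Per2 was 0.63 ± 0.29 at ZT3 (edgeR adjusted p = 0.282) and -0.61 ± 0.29 at ZT12 (edgeR adjusted p = 1). Without the 3 ZT3 libraries with other tissues the ZT3 value was 0.96 (edgeR adjusted p = 0.340).

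Per3, a Period paralog with a lesser part in keeping the rhythm itself, had the largest SD in CPM of the members among the ZT3 controls. Its 3 ZT3 control libraries were at 77.8, 16.7 and 37.6 CPM, and its ZT12 control libraries at 98.8, 93.7 and 123 CPM. All ZT12 values were higher, and among ZT3 controls replicate 1 was far above replicate 2. The log2 difference was 1.36 ± 0.42, with an edgeR adjusted p of 0.0964. Without ZT3 shiftwork replicate 3 in the fit, the library with spermatid transcripts, this became 1.33 with an adjusted p of 0.0419, and DESeq2 gave 1.33 with an adjusted p of 0.0167. Over all 18 alternatives 3 called Per3 here, with differences of 0.98 to 2.52 and adjusted p of 0.00598 to 0.322.

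In shiftwork mice, each Per3 value lay above the 2 lower ZT3 controls. It was at 131, 103 and 70.1 CPM at ZT3 and at 91.8, 105 and 100.1 CPM at ZT12. The log2 difference between times was -0.063 ± 0.42 (edgeR adjusted p = 0.962), and ZT3 shiftwork held both the highest library of all 12 and a low one, replicate 3. Between schedules at ZT3 the log2 difference was 1.29 ± 0.42, the largest of the 6 members in that comparison, but it did not pass over all genes (edgeR adjusted p = 0.216). At ZT12 it was -0.13 ± 0.42 (edgeR adjusted p = 1), and the interaction was -1.42 ± 0.59 (edgeR adjusted p = 0.484). By mean level the groups ran from ZT12 control at 105 ± 15.9 CPM through ZT3 shiftwork at 101 ± 30.4 and ZT12 shiftwork at 99.0 ± 6.72 to ZT3 control at 44.03 ± 31.1 CPM (SD, n = 3). The first 3 overlapped, and the step from ZT12 shiftwork to ZT3 control had no overlap, though ZT3 shiftwork replicate 3 lay below the highest ZT3 control.

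The Per3 differences were larger without the ZT3 libraries that carry other tissues. With ZT3 control replicates 1 and 3 and ZT3 shiftwork replicate 3 left out together, 1 ZT3 control library remained, replicate 2, with the lowest Per3 level of all 18 libraries (16.7 CPM). In replicate 2, too, all 10 spermatid markers were above 1 CPM, with a sum of 88.2 CPM. That lone library is then assumed to vary like the other groups. The Per3 difference between schedules at ZT3 became 2.73 (edgeR adjusted p = 0.0127), the interaction -2.86 (edgeR adjusted p = 0.0247) and the difference between times in controls 2.52 (edgeR adjusted p = 0.00598), while Per2 was at 1.71 with an adjusted p of 0.0544. These larger values rest on that 1 library.

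Per1, a Period gene known for rapid responses to glucocorticoid and cAMP signals, had the highest mean per unit of transcript length in all 4 eWAT groups. It stood at 59.4, 102 and 113 CPM in ZT3 controls and at 96.2, 137 and 169 CPM in ZT12 controls, groups that overlapped. The log2 difference was 0.57 ± 0.27 (edgeR adjusted p = 0.251). In shiftwork mice it was at 98.6, 90.5 and 127 CPM at ZT3 and at 91.5, 91.4 and 95.7 CPM at ZT12. The 3 ZT12 shiftwork libraries were close to each other and all lay below the 3 ZT12 control libraries, though the lowest control was within 1 CPM of the highest shiftwork library. At ZT12, Per1 and Ciart were the 2 members whose schedules did not overlap, both lower in shiftwork, where 12.6% of 15141 genes did not overlap. The log2 difference of Per1 between schedules at ZT12 was -0.57 ± 0.27 (edgeR adjusted p = 1). At ZT3 it was 0.17 ± 0.27 (edgeR adjusted p = 0.773) and turned to -0.18 without the 3 ZT3 libraries rich in vas deferens, epididymis or spermatid markers (ZT3 control replicates 1 and 3, ZT3 shiftwork replicate 3). The difference between times in shiftwork mice was -0.17 ± 0.27 (edgeR adjusted p = 0.797) and the interaction -0.75 ± 0.39 (edgeR adjusted p = 0.515). Without those 3 libraries the difference between times in controls was 0.26 and the interaction -0.39. Mean levels ran from ZT12 control at 134 ± 36.5 CPM through ZT3 shiftwork at 105 ± 19.2 and ZT12 shiftwork at 92.9 ± 2.46 to ZT3 control at 91.4 ± 28.3 CPM (SD, n = 3), with overlap at each step.

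Cry1, the cryptochrome that represses most strongly in the loop, showed no difference between the 4 eWAT groups larger than their spread. It was at 14.04, 19.9 and 13.8 CPM in ZT3 controls and at 17.1, 14.1 and 14.5 CPM in ZT12 controls. In shiftwork mice it was at 13.8, 10.6 and 30.8 CPM at ZT3 and at 11.6, 15.3 and 10.9 CPM at ZT12. A single library, ZT3 shiftwork replicate 3, stood above all others at 30.8 CPM, and it is the library in which spermatid markers summed to 7685 CPM. The log2 difference between times was -0.042 ± 0.33 in controls (edgeR adjusted p = 0.967) and -0.50 ± 0.33 in shiftwork mice (edgeR adjusted p = 0.477). Between schedules it was 0.14 ± 0.33 at ZT3 (edgeR adjusted p = 0.853) and -0.32 ± 0.33 at ZT12 (edgeR adjusted p = 1). Without that library the ZT3 value was -0.33, the difference between times in shiftwork mice was -0.040 and the interaction moved from -0.46 ± 0.47 (edgeR adjusted p = 0.723) to 0.020. By mean, ZT3 shiftwork (18.4 ± 10.9 CPM, SD, n = 3) came before ZT3 control (15.9 ± 3.45), ZT12 control (15.2 ± 1.66) and ZT12 shiftwork (12.6 ± 2.36), with overlap throughout.

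Cry2, the paralog of Cry1, had no difference past the test in eWAT. It was at 88.7, 75.3 and 58.2 CPM in ZT3 controls and at 93.7, 84.1 and 96.3 CPM in ZT12 controls. Shiftwork libraries were at 100, 109 and 72.5 CPM at ZT3 and at 79.2, 98.3 and 103 CPM at ZT12. The lowest 2 of the 12 values were ZT3 libraries with other tissues, control replicate 3 and shiftwork replicate 3. The log2 difference between times was 0.35 ± 0.22 in controls (edgeR adjusted p = 0.397) and -0.026 ± 0.22 in shiftwork mice (edgeR adjusted p = 0.971). Between schedules it was 0.37 ± 0.22 at ZT3 (edgeR adjusted p = 0.386) and -0.0079 ± 0.22 at ZT12 (edgeR adjusted p = 1), and the interaction was -0.38 ± 0.31 (edgeR adjusted p = 0.651). Group means were 93.9 ± 19.0 CPM in ZT3 shiftwork, 93.6 ± 12.7 in ZT12 shiftwork, 91.3 ± 6.43 in ZT12 control and 74.1 ± 15.3 CPM in ZT3 control (SD, n = 3), each overlapping the next. D930015M05Rik, which shares 295 exon bases with Cry2 on the opposite strand, was at 0 to 0.324 CPM in the 18 libraries.

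Ciart, whose protein binds BMAL1 and blocks activation from E-boxes, was the least abundant member. It was at 3.27, 0.489 and 2.60 CPM in ZT3 controls, where replicate 2 had 11 reads (0.489 CPM, exact 95% Poisson interval 0.244 to 0.874, which covers counting error only), and at 2.90, 3.15 and 2.54 CPM in ZT12 controls. Shiftwork libraries were at 2.88, 2.08 and 5.13 CPM at ZT3 and at 1.61, 2.02 and 2.53 CPM at ZT12. Without overlap, the ZT12 shiftwork libraries lay below the ZT12 controls, but the nearest libraries, with 54 and 56 reads, had overlapping counting intervals. The log2 difference between schedules was -0.52 ± 0.54 at ZT12 (edgeR adjusted p = 1) and 0.68 ± 0.53 at ZT3 (edgeR adjusted p = 0.517). Between times it was 0.53 ± 0.53 in controls (edgeR adjusted p = 0.637) and -0.68 ± 0.54 in shiftwork mice (edgeR adjusted p = 0.565), with an interaction of -1.20 ± 0.76 (edgeR adjusted p = 0.564). Without the 3 libraries with other tissues the control difference between times was 2.40 (edgeR adjusted p = 0.0316), again resting on ZT3 control replicate 2 alone, and it was 0.060 without that library and 0.91 without ZT3 control replicate 1. The Ciart difference between schedules at ZT3 was 2.26 without the 3 libraries (edgeR adjusted p = 0.123), 0.22 without ZT3 control replicate 2 and 0.34 without ZT3 shiftwork replicate 3. The interaction was -2.77 without the 3 (edgeR adjusted p = 0.125) and -0.73 without ZT3 control replicate 2, and the difference between times in shiftwork mice was -0.36 without ZT3 shiftwork replicate 3. The highest value, ZT3 shiftwork replicate 3, was in the library with spermatid transcripts, where C920021L13Rik, an antisense gene over the Ciart locus that shares 0 exon bases with it, was at 2.05 CPM against at most 0.457 CPM in the other eWAT libraries. Means ran from ZT3 shiftwork at 3.37 ± 1.58 CPM through ZT12 control at 2.86 ± 0.310 and ZT3 control at 2.12 ± 1.45 to ZT12 shiftwork at 2.05 ± 0.458 CPM (SD, n = 3), with overlap at each step.

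**Figure D2:**
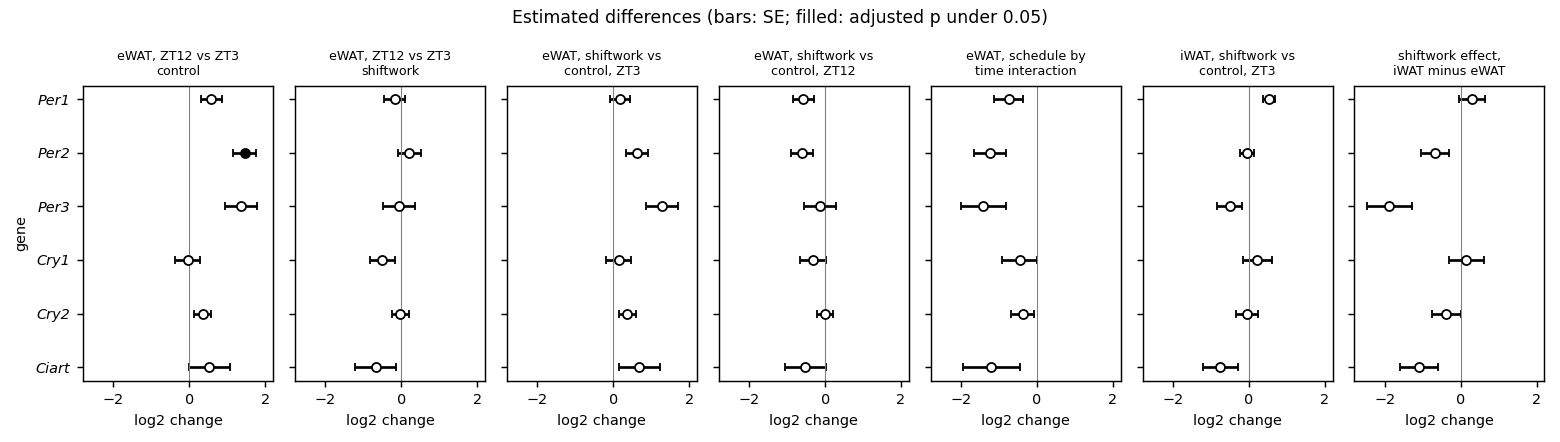
Log2 differences (horizontal axes) of Per1, Per2, Per3, Cry1, Cry2 and Ciart in the 7 comparisons, with bars for the SE and a filled symbol where the adjusted p was under 0.05. Per2 in eWAT of control mice, 1.45 at ZT12 against ZT3, is the single filled symbol.

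Across the 4 eWAT comparisons besides the one in control mice, 0 members passed, and so did 0 genes in all. For ZT12 against ZT3 in shiftwork mice, edgeR called 0% of 15141 genes (2461 had an unadjusted p under 0.05, and DESeq2 called 288), and 0 members were without overlap against 15.8% of all genes. For shiftwork against control at ZT3, edgeR called 0% (2847 at an unadjusted p under 0.05, 629 by DESeq2), and 0 members were without overlap against 10.6% of all genes. At ZT12 it called 0% (355 at an unadjusted p under 0.05, 7 by DESeq2). For the interaction it called 0% (1535 at an unadjusted p under 0.05, 187 by DESeq2). Without ZT3 control replicate 2, edgeR called 403 genes for shiftwork at ZT3 and 186 for the interaction, with 0 members among them. DESeq2 called Per2 and Per3 in control mice between times and 0 members in these 4 comparisons. The median log2 difference of the 6 members between times was 0.55 in controls (all genes -0.012) and -0.12 in shiftwork mice (all genes -0.030). Between schedules the member estimates were all above 0 at ZT3, with a median of 0.50 (all genes 0.057, 56.9% above 0), and all below 0 at ZT12, with a median of -0.42 (all genes -0.0043, 49% above 0). The 4 comparisons share libraries in pairs, so their signs are not independent of each other, and the small estimates of Cry2 and Per3 at ZT12 and of Cry1 and Per1 at ZT3 turned sign in other settings.

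Per unit of transcript length, the order of the members' means was the same in all 4 eWAT groups. At ZT12 in controls, the deposited FPKM (fragments scaled to transcript length and library size) averaged 18.2 ± 4.94 for Per1, 11.3 ± 0.857 for Cry2, 10.9 ± 1.66 for Per3 and 10.7 ± 1.35 for Per2 (SD, n = 3), so the last 3 lay within their spread of each other. Cry1 followed at 3.89 ± 0.428 FPKM and Ciart at 1.19 ± 0.115 FPKM. In ZT3 controls, Per1 was at 12.2 ± 3.88 and Cry2 at 9.01 ± 1.75 FPKM, while Per3 (4.52 ± 3.06), Per2 (4.01 ± 1.46) and Cry1 (4.01 ± 0.886) could not be separated by their spread, and Ciart was at 0.894 ± 0.539 FPKM. In shiftwork mice, Per1 and Cry2 averaged 14.2 ± 2.42 and 11.5 ± 2.41 FPKM at ZT3, and 12.4 ± 0.262 and 11.4 ± 1.55 FPKM at ZT12. Single libraries departed from the order of means. Cry2 was above Per1 in ZT3 control replicate 1 (10.6 against 7.84 FPKM) and ZT3 shiftwork replicate 2 (13.5 against 12.3 FPKM). Means are of values returned from the deposited log2 scale. That scale holds an offset, since Rorb, without reads in ZT12 control replicate 3, still had a positive FPKM there. The offset was not removed, and in proportion it raises low genes such as Ciart most.

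Ratios of 2 genes within a library need no scaling between libraries. The log2 ratio of Per2 to Arntl per transcript length, repressor over activator, was -0.95, -2 and 0.13 in the 3 eWAT ZT3 control libraries and 2.94, 2.72 and 3.31 in the ZT12 control libraries. These groups stood wide apart. In shiftwork mice the ratio was 2.50, 0.37 and 1.16 at ZT3 and 1.39, 2.42 and 1.18 at ZT12, which overlapped. All 6 shiftwork libraries lay above the highest ZT3 control and below the lowest ZT12 control. That did not hold for Per3 or Ciart set over Arntl. The log2 ratio of Per3 to Arntl was 0.29, -2.75 and -0.41 in ZT3 controls, 2.98, 2.71 and 3.38 in ZT12 controls, 3.43, 1.43 and 1.34 in ZT3 shiftwork and 1.94, 2.55 and 2.18 in ZT12 shiftwork. That of Ciart to Arntl was -2.29, -5.41 and -2.26 in ZT3 controls, -0.11, -0.19 and -0.20 in ZT12 controls, -0.070, -2.14 and -0.48 in ZT3 shiftwork and -1.79, -1.09 and -1.10 in ZT12 shiftwork. In both, ZT3 shiftwork replicate 1 was above all ZT12 controls and the other 5 shiftwork libraries lay between the 2 control groups. The offset in the eWAT FPKM draws the 2 genes of a ratio closer together, most for Ciart and Arntl in ZT3 control replicate 2. Ratios to Arntl in CPM, which hold no offset, placed the shiftwork libraries in the same way against the controls. For Per2 to Arntl, ZT3 control replicate 3, one of the libraries rich in vas deferens and epididymis transcripts, had the highest ratio of its group. Replicate 2, where those markers summed to 11.6 CPM, had the lowest. The log2 ratio of Cry2 to Cry1 was 1.61, 0.88 and 1.03 in ZT3 controls and 1.41, 1.53 and 1.69 in ZT12 controls. It was 1.80, 2.31 and 0.21 in ZT3 shiftwork and 1.72, 1.63 and 2.17 in ZT12 shiftwork, so the spermatid library (replicate 3 at ZT3) was the lowest of all. The log2 ratio of Per3 to Per2 was nearly fixed in ZT12 controls, at 0.040, -0.010 and 0.070, and ranged widely in ZT3 controls, at 1.24, -0.75 and -0.54. In shiftwork mice it was 0.93, 1.06 and 0.18 at ZT3 and 0.55, 0.13 and 1 at ZT12, all above 0.

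**Figure D3:**
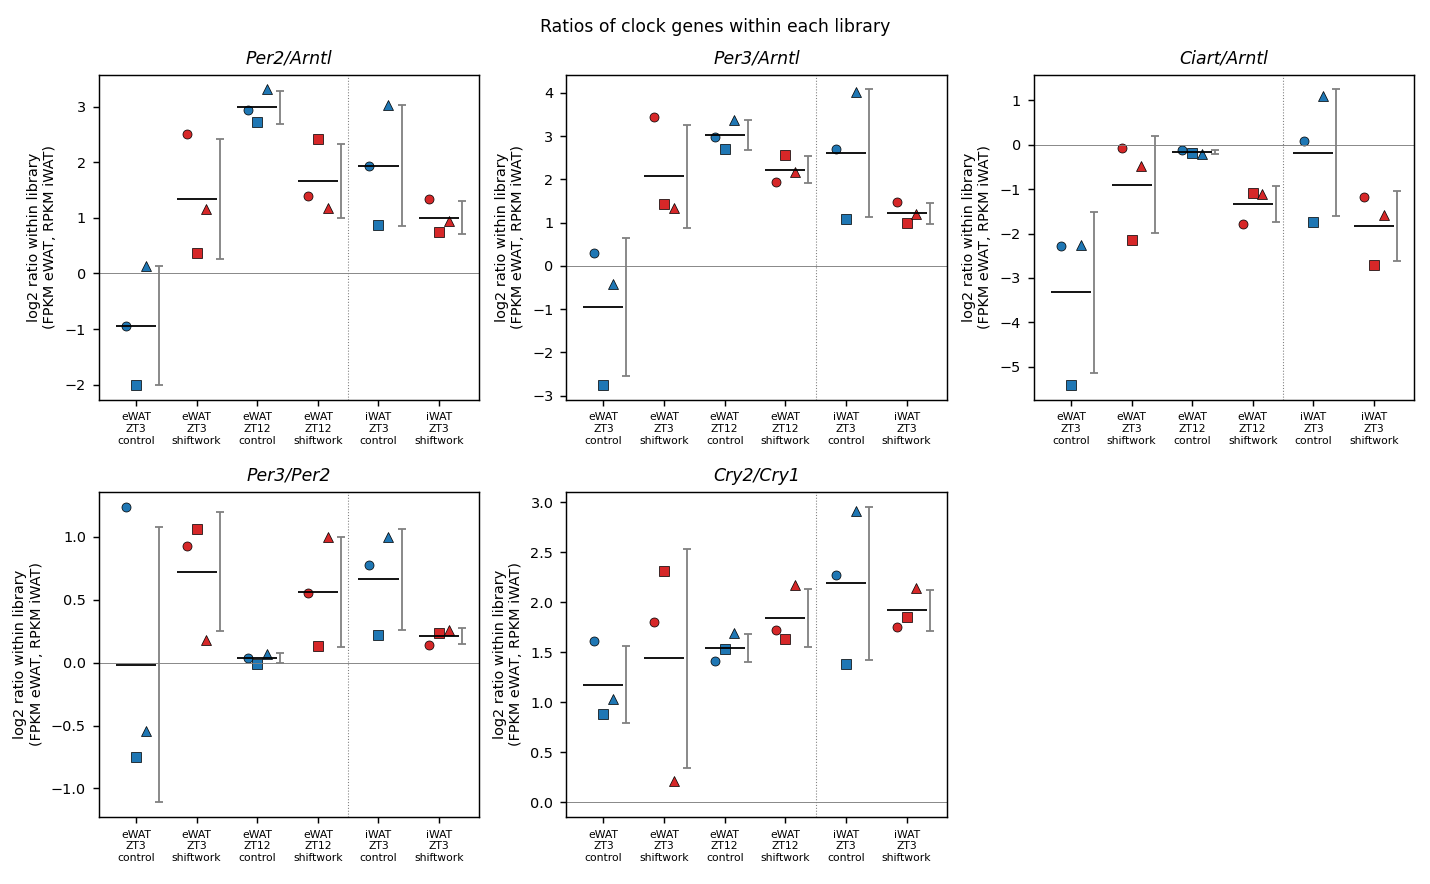
Log2 ratio of Per2, Per3 and Ciart to Arntl, of Per3 to Per2 and of Cry2 to Cry1 within each library (vertical axes), from FPKM in eWAT and RPKM in iWAT, with group means (black lines) and SD (grey bars, n = 3); transcript lengths differ between the depots' tables, so ratios compare within a depot. The Per2 to Arntl ratio of the 6 eWAT shiftwork libraries lies between the ZT3 and the ZT12 controls, while for Per3 and Ciart ZT3 shiftwork replicate 1 lies above the ZT12 controls.

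The other clock genes in eWAT of control mice are set beside the members here. Of 5 activator genes tested (6 listed), all 5 had a log2 difference below 0 at ZT12 and 2 passed, where 3.69% of all genes did: Arntl fell by 2.67 ± 0.46 (edgeR adjusted p = 0.0212) and Clock fell by 0.81 ± 0.18 (edgeR adjusted p = 0.0414). Arntl was at 25.7, 47.7 and 20.4 CPM in ZT3 controls and 4.74, 5.47 and 4.44 CPM in ZT12 controls, the reverse of Per2. Of 4 REV-ERB and DEC repressor genes, 2 had values above 0 and 2 below 0, and 0 passed. Nr1d1, which encodes REV-ERB alpha, had a log2 difference of -1.12 ± 0.34 (edgeR adjusted p = 0.0918). Of 4 D-box factor genes, 2 had values above 0 and 2 below 0, and 0 passed. The 2 above 0 were Tef at 1.03 ± 0.28 (edgeR adjusted p = 0.0670) and Dbp at 1.09 ± 0.49 (edgeR adjusted p = 0.220). Among 13 genes for kinases, ubiquitin ligase subunits and deubiquitinases that act on PER or CRY proteins, 1 passed: Prkaa2, a catalytic subunit of the AMP-activated kinase that marks cryptochromes for decay, fell by 0.82 ± 0.18 (edgeR adjusted p = 0.0412). Among 15 genes for partners of the PER complex, 1 passed: Timeless rose by 0.95 ± 0.17 (edgeR adjusted p = 0.0216). Of 11 genes of the cAMP and glucocorticoid inputs to Per1 and Per2, 0 passed, and the glucocorticoid target Tsc22d3 came nearest at 1.24 ± 0.31 (edgeR adjusted p = 0.0555). The calls of Arntl, Clock, Prkaa2 and Timeless also depended on single libraries. Arntl was not called without ZT3 control replicate 3 or without ZT12 control replicate 1, 2 or 3 (edgeR adjusted p = 0.0668 to 0.117). Timeless was not called without ZT3 control replicate 1 or 3, ZT12 control replicate 1 or 2, or ZT12 shiftwork replicate 3 (edgeR adjusted p = 0.0538 to 0.128), nor without the 3 libraries with other tissues (edgeR adjusted p = 0.0841). With 1 library left out, Clock kept its call only without ZT3 control replicate 1, ZT3 shiftwork replicate 2 or ZT3 shiftwork replicate 3, and was otherwise at an edgeR adjusted p of 0.0522 to 0.156. Prkaa2 kept its call only without ZT3 shiftwork replicate 2 or 3, and was otherwise at 0.0510 to 0.154. With the replicate block, Clock (edgeR adjusted p = 0.0552) and Prkaa2 (edgeR adjusted p = 0.0632) were not called, nor without a count filter (0.0679 and 0.0692).

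In the 4 other eWAT comparisons, 0 genes of these 6 lists passed. At ZT3, shiftwork against control, 4 of 5 activators had values below 0 (median -0.60, all genes 0.057), led by Arntl at -1.64 ± 0.45 (edgeR adjusted p = 0.198) and Clock at -0.60 ± 0.18 (edgeR adjusted p = 0.207). Among D-box factors, Tef was at 0.98 ± 0.28 (edgeR adjusted p = 0.203) and Nfil3 at -2.27 ± 0.55 (edgeR adjusted p = 0.194). Atf4, a stress-activated factor of the input list, was at -0.75 ± 0.14 (edgeR adjusted p = 0.170). At ZT12, all 5 activators were above 0 (median 0.36, all genes -0.0043), with Arntl at 0.73 ± 0.44 (edgeR adjusted p = 1). The interaction of Arntl was 2.37 ± 0.62 (edgeR adjusted p = 0.419) and that of Tef -1.13 ± 0.39 (edgeR adjusted p = 0.470).

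Genes whose levels followed a member most closely were ranked by the Pearson correlation of log2(CPM + 1) over the 12 eWAT libraries, among 12823 other genes. These coefficients are descriptions, since the points share groups, libraries and depth. For Per3 the highest were the D-box factor genes Tef (r = 0.992) and Dbp (r = 0.976), then Ctdsp2 (r = 0.938). By rank (Spearman) these were 0.986, 0.755 and 0.559. Tef, like Per3, was lowest in ZT3 control replicate 2, at 64.8 CPM against 125 to 265 CPM in the other 11 eWAT libraries. Without that library, r with Per3 was 0.974 for Tef, 0.948 for Dbp and 0.799 for Ctdsp2 (n = 11). Over the 6 iWAT libraries Tef had r = 0.714, Dbp r = 0.552 and Ctdsp2 r = -0.322 with Per3. For Per2 the highest were Il6ra (r = 0.909), Hhipl1 (r = 0.901) and Vcam1 (r = 0.89), with r between -0.171 and 0.0704 over the 6 iWAT libraries. Per2 ran against Arntl (r = -0.898 in eWAT, n = 12, and -0.463 in iWAT, n = 6). For Cry2 the highest were Dab2ip (r = 0.965), Sctr (r = 0.958) and Dip2a (r = 0.953), which in iWAT had r = 0.911, -0.147 and 0.474. For Ciart they were Sbf2 (r = 0.931), Zfp287 (r = 0.93) and Kdm3b (r = 0.908), which in iWAT had r = -0.342, 0.189 and 0.181. Without ZT3 control replicate 2, the library with 11 Ciart reads, they were at r = 0.902, 0.814 and 0.791 (n = 11). For Per1 they were lower, with Dclre1b at r = 0.823, Tmem252 at r = 0.815 and Sema7a at r = 0.753, and in iWAT at r = 0.0638, 0.814 and 0.409. For Cry1 they were Taf4b (r = 0.952), Cpeb2 (r = 0.903) and Dcdc2a (r = 0.902), which without the spermatid library were 0.864, 0.74 and 0.735 (n = 11), and in iWAT 0.559, 0.524 and 0.32. The Spearman coefficients of the genes named for members other than Per3 ran from 0.427 (Sema7a with Per1) to 0.951 (Dab2ip with Cry2), with Dcdc2a and Cry1 at 0.5. Among the members themselves, Per3 had r = 0.689 with Cry2 and r = 0.641 with Per2, and Per1 with Per3 had r = 0.0395, all over 12 eWAT libraries.

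**Figure D4:**
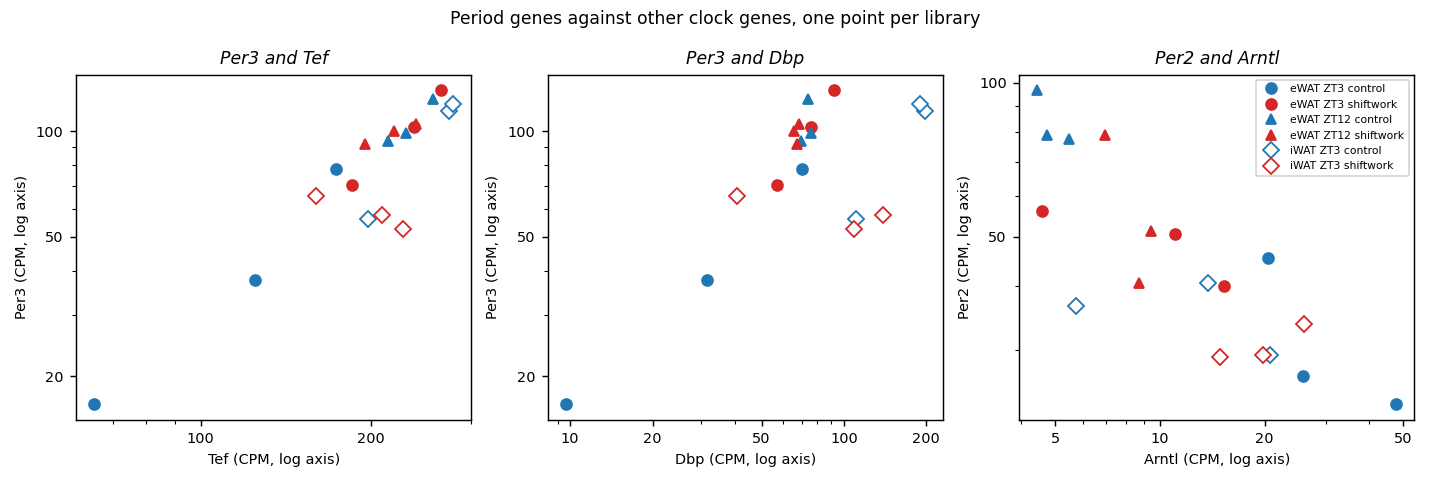
Per3 against Tef and against Dbp, and Per2 against Arntl, in CPM on log axes, 1 point per library (12 eWAT, filled, and 6 iWAT, open). In eWAT the Per3 points rise with Tef and with Dbp, with ZT3 control replicate 2 at the lower end, and Per2 points fall as Arntl increases.

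In iWAT at ZT3, Per1 was the only 1 of 6 members whose libraries did not overlap between schedules, against 10.7% of 16441 genes. It was at 98.0, 77.3 and 78.0 CPM in controls and at 105, 127 and 99.5 CPM in shiftwork mice, all 3 shiftwork values being higher. The log2 difference was 0.53 ± 0.16 and did not pass over all genes (limma adjusted p = 0.691). The authors' deposited table gives Per1 a log2 fold change of 0.53 with an adjusted p of 0.190. In that comparison of the authors, 426 genes had an adjusted p under 0.05, with no member among them. limma called 0% of 16441 genes here (1083 at an unadjusted p under 0.05, 451 by DESeq2 on whole reads, 849 by limma without control replicate 3), and 0 of the 6 members. Per1 was at 98.0 and 77.3 CPM in control replicates 1 and 2, the libraries with the highest B cell marker sums. It was at 105 and 127 CPM in shiftwork replicates 1 and 2, which had the highest skeletal muscle sums, 42588 and 698 CPM. Over all alternatives the Per1 difference was between 0.39 and 0.62.

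The other members overlapped between schedules in iWAT. Per2 was at 40.7, 29.3 and 36.5 CPM in controls and at 29.0, 33.7 and 29.4 CPM in shiftwork mice, a log2 difference of -0.054 ± 0.18 (limma adjusted p = 0.933). Per3 was at 114, 56.1 and 119.8 CPM in controls and at 52.5, 65.4 and 57.8 CPM in shiftwork mice, a log2 difference of -0.50 ± 0.33 (limma adjusted p = 0.697). For Per3, control replicates 1 and 3 lay above all shiftwork libraries, while control replicate 2, which had the highest B cell sum, lay among them. The Per3 difference was -0.88 without control replicate 2 and -0.22 without control replicate 3. Cry1 was at 12.5, 17.1 and 8.34 CPM in controls and at 15.8, 16.7 and 7.81 CPM in shiftwork mice, a log2 difference of 0.22 ± 0.38 (limma adjusted p = 0.866). Cry2 was at 114, 84.5 and 119 CPM in controls and at 101, 115 and 65.5 CPM in shiftwork mice, a log2 difference of -0.053 ± 0.28 (limma adjusted p = 0.959). For both cryptochrome genes the schedules overlapped and the difference was smaller than its SE. Ciart was at 4.39, 1.88 and 3.7 CPM in controls and 1.97, 1.19 and 1.996 CPM in shiftwork mice, a log2 difference of -0.75 ± 0.46 (limma adjusted p = 0.696), with control replicate 2 inside the shiftwork range. It was -1.13 without control replicate 2 and -0.47 without shiftwork replicate 2.

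Mean iWAT levels, control first and shiftwork second (SD, n = 3), were 84.4 ± 11.8 and 111 ± 14.4 CPM for Per1, 35.5 ± 5.72 and 30.7 ± 2.62 for Per2, and 96.7 ± 35.2 and 58.6 ± 6.51 for Per3. They were 12.6 ± 4.38 and 13.5 ± 4.91 CPM for Cry1, 106 ± 18.6 and 93.7 ± 25.4 for Cry2, and 3.32 ± 1.29 and 1.72 ± 0.456 for Ciart. Per transcript length, the deposited RPKM put Cry2 (16.8 ± 2.94) and Per1 (15.1 ± 2.10) first in iWAT controls, within their spread of each other, and Ciart last (1.47 ± 0.573). The log2 ratio of Per2 to Arntl was 1.93, 0.86 and 3.03 in iWAT controls and 1.33, 0.75 and 0.94 in iWAT shiftwork, with overlap. These ratios cannot be set beside those of eWAT, because the transcript length behind the values was 2.958 kb for Arntl in the eWAT table and 7.5 kb in the iWAT table (CPM over RPKM), against 5.982 and 5.83 kb for Per2. Of the 6 other lists, 0 genes passed in iWAT. All 6 activators had values above 0 (median 0.62, all genes 0.017), led by Npas2 at 1.08 ± 0.32 (limma adjusted p = 0.691) and Arntl at 0.88 ± 0.43 (limma adjusted p = 0.691), and Nfil3 was at 1.16 ± 0.21 (limma adjusted p = 0.691).

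The effect of shiftwork at ZT3 was then compared between the depots, as the iWAT difference minus the eWAT difference. Per3 had the largest value among the members, -1.88 ± 0.59, and it did not pass (limma adjusted p = 0.327). The separate fits had given Per3 1.29 in eWAT (edgeR) and -0.50 in iWAT (limma). Ciart was at -1.10 ± 0.50 (limma adjusted p = 0.434) and Per2 at -0.69 ± 0.36 (limma adjusted p = 0.474). Cry2 was at -0.38 ± 0.38 (limma adjusted p = 0.667), Per1 at 0.30 ± 0.35 (limma adjusted p = 0.709) and Cry1 at 0.15 ± 0.47 (limma adjusted p = 0.902). limma called 0.0129% of 15527 genes (2, or 0 to 733 with 1 library left out, most without iWAT control replicate 3) and 0 members. Without the 3 eWAT ZT3 libraries with other tissues, Per3 was at -3.16 (limma adjusted p = 0.0332), with ZT3 control replicate 2 as the only eWAT ZT3 control. Of the other clock lists 0 genes passed, with Nfil3 at 3.08 ± 0.63 (limma adjusted p = 0.158), Arntl at 2.39 ± 0.59 (limma adjusted p = 0.269) and Tef at -1.18 ± 0.41 (limma adjusted p = 0.368).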

How the data were processed

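For eWAT, the authors deposited whole-number read counts per gene symbol for 12 libraries, and log2 FPKM values for the same libraries. STAR and HTSeq, the packages DESeq2, limma and edgeR, and the builds mm10 and GRCm38 are listed without roles, per the submitters' processing notes; the strand setting is not given in the sources used here. Although titled as counts, the values deposited for iWAT are normalized signal: counts divided by 1 size factor per library. Dividing by that step gave whole reads for 100% of 310956 values (largest deviation 2.79e-09). The authors also deposited RPKM values, per the file headers, beside a log2 fold change and a p-value from their own iWAT comparison, with no tool stated.

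eWAT counts were fitted with edgeR 4.0.16 (R 4.3.3): quasi-likelihood, robust, TMM, filterByExpr (minimum count 10, total 15), all 12 libraries in 4 groups. SE was the size of the log2 change over the square root of F. iWAT values were tested with limma 3.58.1 (trend, robust) on log2(value + 1), which understates changes of low genes, since they are not counts; edgeR on the recovered reads called 0 genes. The depot difference used limma on log2(CPM + 1) over the 15527 of 23410 shared symbols that passed the filter, with all 18 libraries. Calls were made at a Benjamini-Hochberg adjusted p under 0.05 over all genes tested. Alternatives included DESeq2 1.42.0, other size factors, filters and pseudocounts, fits of 2 groups, a replicate block, and leaving out each library. The code was tested on simulated data. CPM used the table totals. Promoters came from RefSeq, and overlaps from the GENCODE annotation of GRCm38.

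All 6 members were named in each comparison, listed clock genes where they passed or had 1 of the 2 smallest p in a list, and the 3 genes most correlated with each member (mean of at least 2 CPM, predicted genes and Riken clones left out). D930015M05Rik and C920021L13Rik were named for their overlap with members. One listed gene is not reported here. The members and lists were chosen with earlier results of these data known.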

Additional observations from a re-analysis of the deposited data

How the results depend on the processing

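Of 42 member differences under 756 alternative values, 28 changed sign, in 12 differences whose size was at most 0.46, and none of the 28 passed a test (lowest adjusted p 0.245); their causes were not tested. The deposited FPKM and RPKM are another unit and are given as levels per length, and the fit of 2 groups was not run for the interaction. Depth limits Ciart most, with 11 to 244 reads per library. Leaving out 1 library at a time moved the count of genes called for time in control mice between 1 (without ZT12 control replicate 1) and 2744 (without ZT3 shiftwork replicate 3) and its members called between 0 and 2. Genes called ran from 0 to 403 for schedule at ZT3 and from 0 to 186 for the interaction (both highest without ZT3 control replicate 2), from 0 to 849 in iWAT and from 0 to 733 for the depot difference (both highest without iWAT control replicate 3). The same exercise gave ranges across 0 for Cry2 (-0.090 to 0.11) and Per3 (-0.22 to 0.0032) for schedule at ZT12, for Per1 (-0.10 to 0.33) and Cry1 (-0.33 to 0.40) for schedule at ZT3, for Cry1 in control time (-0.19 to 0.22), for Per2 (-0.12 to 0.39), Per3 (-0.33 to 0.19) and Cry2 (-0.25 to 0.12) in shiftwork time, for the Cry1 interaction (-0.72 to 0.020), for Per2 (-0.21 to 0.060) and Cry2 (-0.23 to 0.20) in iWAT and for the Cry1 depot difference (-0.11 to 0.49).

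DESeq2 called 2168 genes for time in controls (1170 higher and 998 lower, against 443 and 116) and 2 members, 288 for time in shiftwork mice, 629 and 7 for schedule at ZT3 and ZT12, 187 for the interaction and 451 in iWAT. Without a count filter, 320 genes were called for time in controls. Fitting only 2 groups gave Cry2 0.0070 for schedule at ZT12. The depot difference called 1 gene with edgeR, with a pseudocount of 5 and without a filter. Leaving out together the 3 ZT3 libraries with vas deferens, epididymis or spermatid markers, an alternative chosen after seeing the data, called 2 members for time in controls (Per3 and Ciart, with Per2 no longer called), and 75 genes for time in shiftwork mice. For schedule at ZT3 it called 9 genes and 1 member (Per3), with Per1 at -0.18 and Cry1 at -0.78. For the interaction it called 7 genes and 1 member (Per3), with Cry1 at 0.47, and for the depot difference 27 genes and 1 member (Per3).

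Deviations of eWAT libraries with the same replicate number in their titles had a median correlation of -0.0822 (-0.252 to 0.242, 4 of 18 pairs over 0.1). For different numbers the median was 0.0567 (-0.305 to 0.285, 14 of 36 over 0.1). In iWAT the range was -0.22 to -0.0369 for the same number and -0.058 to 0.266 for different numbers. With 3 libraries per group, these values cannot settle whether the numbers mark a pairing. With the replicate block, 298 genes and 0 members were called for time in controls (Per2 1.47, edgeR adjusted p = 0.0698), 0 genes for the depot difference, and Cry2 was at 0.0015 for time in shiftwork mice. The block changed no other call among the members. Among the other clock genes named, Usp2 and Npas2 changed sign and were not called. With 1 library left out, the range was -2.32 to 0.50 for Usp2 and -1.72 to 0.43 for Npas2 in shiftwork time, and -0.14 to 2.68 for Usp2 for schedule at ZT3, each changing sign without ZT3 shiftwork replicate 3. Without the 3 ZT3 libraries together, Usp2 was at 0.49 and Npas2 at 0.42 in shiftwork time, and Usp2 at -0.32 for schedule at ZT3 and at 0.10 for the interaction.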

Other observations

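The library names carry a number besides the replicate number. The numbers 14, 15 and 16 stand in the names of the 3 eWAT ZT12 control libraries and again in those of the 3 iWAT ZT3 control libraries, and 45 stands in the names of eWAT ZT12 shiftwork replicate 1 and iWAT ZT3 shiftwork replicate 3. The labels do not say what the number marks, and the time labels of the paired names differ. The log2 ratio of Per2 to Arntl in CPM, which is not divided by transcript length, was 4.06 in eWAT and 1.56 in iWAT for number 14, 3.82 and 0.50 for 15, 4.44 and 2.67 for 16, and 2.44 and 0.57 for 45, lower in iWAT in all 4 pairs. The reads counted still depend on the transcript length assumed, 2.958 kb for Arntl in eWAT and 7.5 kb in iWAT. These ratios therefore cannot be compared between the depots either. The times of the iWAT groups in all comparisons are those of the labels.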
